A study of Mus musculus with 8 samples.

Results

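The LPS response of macrophages that had first been given fenoterol was measured as chromatin accessibility. The comparison sets 2 libraries of cells given fenoterol and then LPS (fenoterol + LPS) against 2 libraries of cells given fenoterol alone, 1 of each from mouse 1 and 1 of each from mouse 2, so 4 of the 8 libraries of the series are compared. They were chosen by the treatment in the labels and paired by mouse number, and no measured value entered that choice. All cells were macrophages grown from the bone marrow of wild-type C57Bl/6 mice in a growth medium with serum. Fenoterol, an agonist of the β2 adrenergic receptor, was given at 1 µM for 15 min, and LPS, the lipopolysaccharide of the outer wall of Gram-negative bacteria, at 100 ng/mL for 1 h after it. The other 4 libraries, from unstimulated cells and from cells given LPS alone for 1 h, came from the same 2 mice. Cells given fenoterol alone had been treated for 15 min, per the labels, and cells given both had a further 1 h of LPS, so 75 min since the agonist and 1 h with LPS cannot be told apart from LPS itself in this comparison. The same holds where this response is set against the response without fenoterol.

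LPS is sensed by Toll-like receptor 4, whose signalling releases NF-kB to the nucleus and activates MAP kinases and AP-1 factors. These factors bind promoters and enhancers of inflammatory genes, many of which become more accessible within the first hours. The β2 adrenergic receptor couples to the G protein Gs, raises cyclic AMP and activates protein kinase A and the factor CREB, a pathway known to change which inflammatory genes macrophages make after LPS. In ATAC-seq the Tn5 transposase cuts DNA that is not wrapped in nucleosomes, and a peak is a stretch of DNA with many such cuts.

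The table held 74207 peaks, 404 bp wide at the median, placed on mouse build mm9. Its rows carry positions and no gene names, and the gene tables at hand are of another build, so regions are given by their mm9 position, no sequence is printed, and the macrophage identity of the cells was not checked against marker genes. Reads in peaks came to 3164244 and 3753896 in the fenoterol libraries of mouse 1 and mouse 2 and to 3918298 and 3535280 in the fenoterol + LPS libraries. They came to between 1425275 and 4040220 in the other 4, the lowest being the unstimulated library of mouse 1. Values are RPKM, reads per kb of peak relative to the reads of the library, after scaling between libraries. Log2 changes are of RPKM + 4, so they understate the ratio of the levels, most of all at low peaks. A peak is said to have risen or fallen where limma gave an adjusted p under 0.05 over the 66786 peaks tested.

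Many more peaks passed the threshold as gains with LPS than as losses in fenoterol-treated cells. Of the tested peaks 6623 rose, 9.92% of them, and 3252 fell, 4.87%, which together makes 14.8%. The risen peaks stood at a median of 10.2 and 12.5 RPKM with fenoterol in mouse 1 and mouse 2 and at 29.6 and 29.6 RPKM with fenoterol + LPS. The fallen peaks stood at 34.6 and 32.8 RPKM before LPS and at 19.3 and 19.0 RPKM after it. Among the called peaks, gains were also larger than losses. The median log2 change was 1.06 in the risen peaks, where 3691 (55.7%) changed at least 2-fold, and -0.71 in the fallen peaks, where 519 (16.0%) did. Over all tested peaks, called or not, the median was -0.03. Both fenoterol + LPS libraries were above both fenoterol libraries at 27.1% of these and below both at 30.3%. The risen peaks took up 4.85% and 5.55% of the reads in peaks with fenoterol and 11.03% and 11.11% with fenoterol + LPS. In the libraries without fenoterol, whose group means do not enter this comparison, the same peaks took up 5.33% and 5.58% of reads unstimulated and 9.63% and 9.91% with LPS. The numbers of calls changed when a single library was left out, which leaves 1 library in its group. With the mouse 1 library of fenoterol left out, 2889 peaks rose and 757 fell. Dropping fenoterol + LPS of mouse 1 gave 2492 and 920, and dropping that of mouse 2 gave 3233 and 1246. The fallen peaks numbered 1250 once fenoterol of mouse 2 was dropped, and 5014 or 4971 once unstimulated cells of mouse 1 or mouse 2 were.

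The change was larger in mouse 1 than in mouse 2 at most risen peaks. The direction was the same in each mouse at 69.7% of tested peaks; it was at all 6623 risen and 3252 fallen ones, which a call made on both mice together favours. A change of at least 2-fold in the same direction in each mouse was seen at 2489 peaks upward (3.73% of those tested) and 193 downward (0.289%), against 7 that went 2-fold in opposite directions. Both counts depend on the pseudocount: they were 256 and 1 with a pseudocount of 20, and 3565 and 574 with one of 0.8. Mouse 1 had 5018 peaks at least 2-fold higher and 1300 at least 2-fold lower, and mouse 2 had 3535 and 1091. The median log2 change of the risen peaks was 1.14 in mouse 1 and 0.96 in mouse 2, and the change was larger in mouse 1 at 4318 of them (65.2%). Levels before LPS moved with this: the fenoterol library of mouse 1 was the lowest of the 4 libraries without LPS at the risen peaks, at a median of 10.2 RPKM against 12.5 to 12.7 in the other 3. After LPS the medians of the mice were alike. The part of that library in the difference between the mice was not tested. Another list is the 4660 peaks that rose with LPS alone. It compares group means without fenoterol, though the filter and the estimate of the spread use all 8 libraries. There the medians with fenoterol were 11.6 RPKM in mouse 1 and 13.4 in mouse 2, and the log2 changes 1.01 and 0.92. The unstimulated medians, which entered the choice of this list, were lower in each mouse, at 10.5 and 11.8 RPKM, and also lower in mouse 1.

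**Figure D1:**
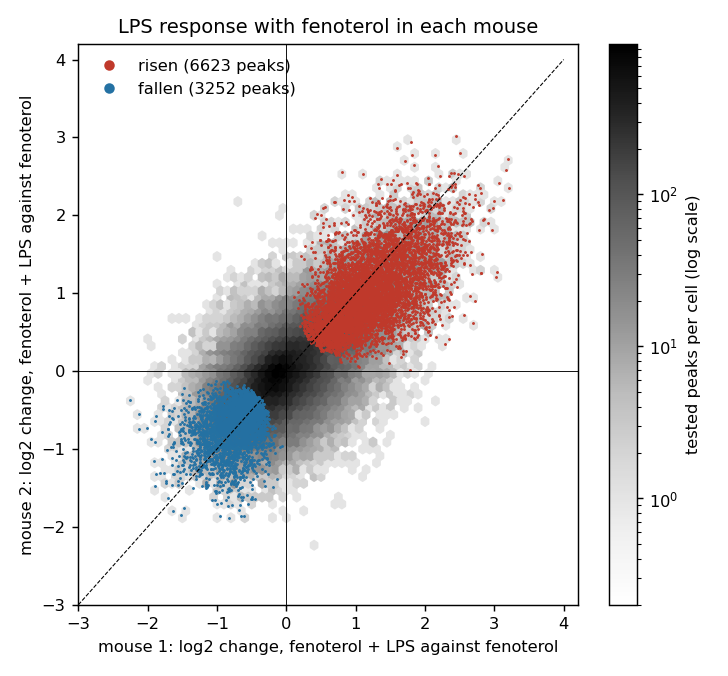
Log2 change of accessibility (RPKM + 4) from fenoterol to fenoterol + LPS in mouse 1 (horizontal axis) and mouse 2 (vertical axis) over 66786 tested peaks, with grey cells shaded by the number of peaks on a log scale, red points for the 6623 risen peaks and blue points for the 3252 fallen peaks; the dashed line marks equal change. The called peaks lie in the 2 quadrants of like direction, and the risen ones lie more often to the right of the line, where the change was larger in mouse 1.

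The largest gains started below the median of all tested peaks, 18.8 and 19.0 RPKM with fenoterol in mouse 1 and mouse 2. The 12 peaks with the largest rise changed 5.81- to 7.77-fold on the scale of RPKM + 4. With fenoterol they stood at 2.10 to 8.66 RPKM in mouse 1 and 4.37 to 16.9 RPKM in mouse 2, and with fenoterol + LPS at 42.3 to 96.1 and 42.7 to 105 RPKM. The groups overlapped at none of them, which the choice of the largest rises brings with it; over all tested peaks both fenoterol + LPS libraries were above both fenoterol libraries at 27.1%. All 12 also rose with LPS alone, and all 12 kept their call under all 20 alternatives. The fenoterol library of mouse 1 was below that of mouse 2 at 11 of the 12, and the change was larger in mouse 1 at 10.

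The largest rise was on chromosome 14 at 103456180 to 103456905. It had 3.92 and 12.5 RPKM with fenoterol in mouse 1 and mouse 2 and 68.4 and 105 RPKM with fenoterol + LPS (log2 change 2.96, SE 0.19, adjusted p = 1.29e-07). Both libraries with LPS were far above both without, and the unstimulated cells had 14.5 and 13.7 RPKM. The mouse 1 value with fenoterol rested on 9 reads, with an exact 95% Poisson interval of 1.79 to 7.44 RPKM, and that of mouse 2 on 35 reads, with an interval of 8.70 to 17.4 RPKM; these intervals cover counting error only. Its neighbour at 103457007 to 103457218 went from 2.99 and 13.5 RPKM to 59.1 and 101 RPKM, the next largest change.

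Of the named gains, 3 lay on chromosome 11. The peak at 81825344 to 81825697 had 2.68 and 5.86 RPKM with fenoterol and 57.7 and 46.1 RPKM with both (log2 change 2.78, SE 0.30, adjusted p = 5.78e-06). Unstimulated cells of mouse 1 had 21.3 RPKM there and those of mouse 2 had 5.48 RPKM, so the level before LPS varied between libraries. The peak at 54767546 to 54767901 was low in both mice before LPS, with 4.45 and 4.37 RPKM, and had 42.3 and 64.0 RPKM after it. The peak at 113591207 to 113591681 was the most accessible of the 12 at the start in both mice, with 8.66 and 16.9 RPKM, and went to 96.1 and 85.3 RPKM.

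On chromosome 17 the broadest of these 12 peaks, 946 bp wide at 35335631 to 35336577, went from 4.67 and 10.9 RPKM to 57.0 and 68.8 RPKM (log2 change 2.55, SE 0.22, adjusted p = 8.05e-07). LPS alone gave 82.8 and 85.9 RPKM at this peak, above both fenoterol + LPS libraries, yet the difference of the LPS responses did not pass (log2 0.28, SE 0.32, adjusted p = 0.922). A peak on chromosome 16 at 84717504 to 84717797 showed the mice closest in start level after the chromosome 11 peak at 54767546: it had 5.39 and 7.06 RPKM with fenoterol and 49.5 and 72.8 RPKM with both (adjusted p = 1.29e-07). The peak on chromosome 10 at 18718762 to 18719465 went from 2.70 and 8.09 RPKM to 49.2 and 51.1 RPKM, and a peak on the same chromosome at 122328550 to 122328891 from 3.71 and 6.83 to 48.5 and 52.7 RPKM. The start values rest on few reads, 6 and 22 at the former and 4 and 9 at the latter, and their exact 95% Poisson intervals overlap between the mice. The remaining 3 of the 12, on chromosomes 19 (6273867 to 6274084), 6 (106747425 to 106747726) and 13 (75891656 to 75892245), had 2.10 to 9.22 RPKM with fenoterol and 42.7 to 64.8 RPKM with both.

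The largest losses were smaller and started from modest levels. Among the 12 largest falls the change was 2.89- to 3.29-fold. They were 199 to 523 bp wide, and had 11.996 to 41.8 RPKM in mouse 1 and 14.0 to 45.2 RPKM in mouse 2 with fenoterol. With fenoterol + LPS they had 0.805 to 10.03 and 2.54 to 13.01 RPKM, and the groups overlapped at none, which again follows from their choice; over all tested peaks both were below both fenoterol libraries at 30.3%. With LPS alone 2 of the 12 also fell, where 35.1% of all fallen peaks and 4.27% of tested peaks did. The tests of the difference of the LPS responses gave no adjusted p under 0.448 at these 12 losses. At 6 of the 12 both fenoterol libraries were above both unstimulated libraries, against 27.4% of the fallen and 15.1% of all tested peaks; a choice of large falls favours high fenoterol values.

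The largest fall, on chromosome 1 at 130643923 to 130644313, went from 22.7 and 19.9 RPKM with fenoterol to 4.57 and 2.88 RPKM with both (log2 change -1.72, SE 0.30, adjusted p = 0.000576). LPS alone left 12.4 and 7.69 RPKM, from 19.3 and 13.03 unstimulated. On chromosome 11, the peak at 106397389 to 106397912 had 39.9 and 34.1 RPKM with fenoterol and 7.78 and 9.66 RPKM with both (log2 change -1.69, SE 0.26, adjusted p = 0.000219). Only its fenoterol libraries were high: the other 6 had 7.78 to 15.7 RPKM. The peak on chromosome 5 at 103069688 to 103069945 had the same shape, with 33.2 and 22.1 RPKM with fenoterol and 3.28 to 10.6 RPKM in the other 6 libraries.

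By contrast, the peak on chromosome 12 at 25784253 to 25784608 was as high in unstimulated cells, at 31.8 and 47.7 RPKM, as with fenoterol, at 41.8 and 45.2 RPKM. It went to 10.03 and 11.9 RPKM with fenoterol + LPS (adjusted p = 2.68e-05) and to 20.9 and 13.1 RPKM with LPS alone (adjusted p = 0.0024). The peak on chromosome 16 at 23280527 to 23281023 is the other that fell in both comparisons, from 28.7 and 22.9 to 7.69 and 3.96 RPKM here and from 24.2 and 17.1 to 10.9 and 5.50 RPKM without fenoterol. A value of 0.805 RPKM, at the chromosome 2 peak at 103802633 to 103802949 in the fenoterol + LPS library of mouse 1, is 1 read, which the table also gives to peaks with none. Of these 12 calls, 8 were lost when fenoterol of mouse 1 was left out and 3 when fenoterol of mouse 2 was. Leaving out fenoterol + LPS lost 6 calls for mouse 1 and 1 for mouse 2.

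**Figure D2:**
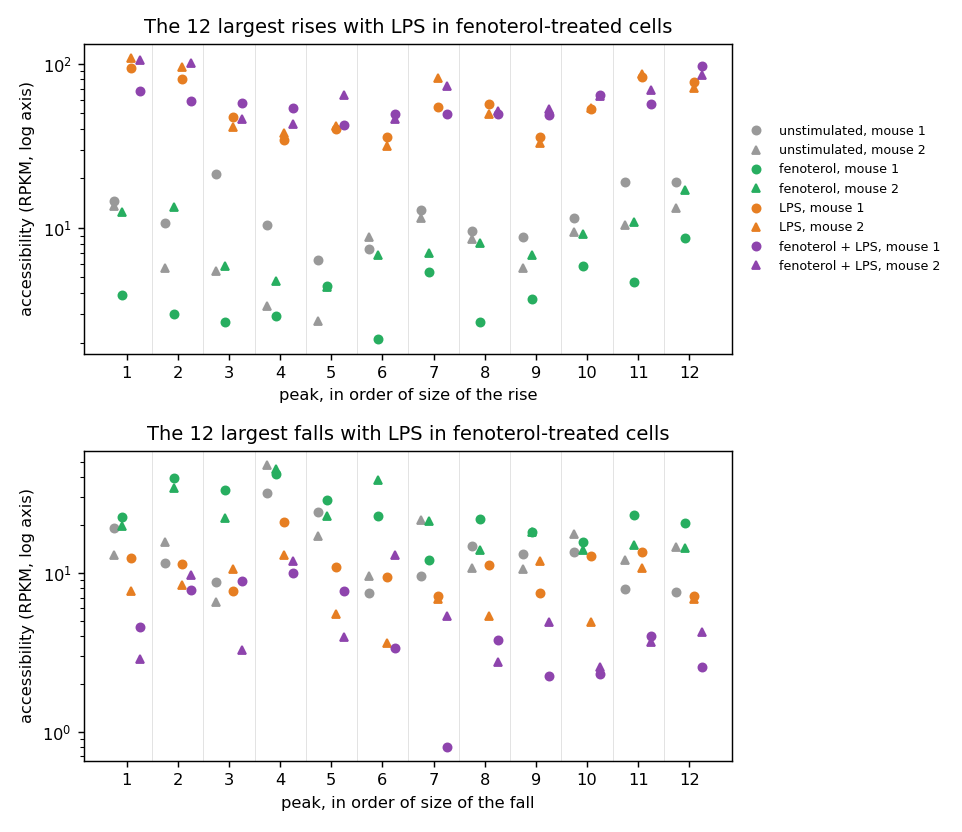
Accessibility (RPKM, log axis) of the 12 peaks with the largest rise (top) and the 12 with the largest fall (bottom), numbered in order of size, with 1 point per library: circles for mouse 1, triangles for mouse 2, and grey, green, orange and purple for unstimulated, fenoterol, LPS and fenoterol + LPS. The 24 peaks were chosen for the gap between green and purple points, which overlap at none of them (over all tested peaks, purple was above green at 27.1% and below it at 30.3%). At 11 of the 12 rises the green circle of mouse 1 lies below the green triangle of mouse 2.

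Strongly accessible peaks changed too, by less. The 5 risen peaks with the highest mean over the 4 libraries changed 1.34- to 1.99-fold. The largest change, on chromosome 10 at 37057908 to 37058673, was from 62.4 and 58.8 RPKM to 124 and 124 RPKM (log2 change 0.99, SE 0.13, adjusted p = 3.20e-05). LPS alone gave 125 and 117 RPKM. Its call was kept under all 20 alternatives, and those of the other 4 were lost under 3 to 9 of them. The highest of the 5 by mean, on chromosome 4 at 144857404 to 144858169, went from 74.7 and 74.0 to 117 and 125 RPKM. The 5 most accessible fallen peaks changed 1.34- to 1.52-fold. The largest of these changes, on chromosome 2 at 150499455 to 150500235, was from 134 and 105 RPKM to 76.6 and 77.0 RPKM (log2 change -0.60, SE 0.14, adjusted p = 0.00467). Each call of these 5 losses was lost under at least 3 of the 20 alternatives.

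Whether a peak was called risen or fallen went with how accessible it was before any treatment. The unstimulated library of mouse 2 takes no part in the 2 group means, and all 74207 peaks were ranked by it and tested with no filter on low values, where 8043 rose (10.8%) and 3447 fell (4.65%). In the lowest decile, at a median of 5.09 RPKM, 39.2% of peaks rose and 0.323% fell. The share that rose was 15.0% in the next decile, between 5.51% and 8.80% in the third to the ninth, and 2.24% in the highest. The share that fell went up with level as far as the ninth decile, at a median of 38.9 RPKM, where 11.8% fell and 5.51% rose. From the fifth to the seventh decile both shares went up. In the highest decile, at 57.6 RPKM, 8.69% fell. Falls outnumbered rises only in the top 3 deciles. All libraries share 1 peak set, so a peak low in unstimulated cells could enter it through libraries with LPS; the part of this in the shares of the low deciles was not tested.

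Some peaks had almost no reads before LPS. In 811 of all peaks both fenoterol libraries held at most 3 reads, and 587 of these rose with no filter; 107 of the 811 were among the 66786 peaks that passed it. The risen ones had a median of 2 and 2 reads with fenoterol and 15 and 13 reads with fenoterol + LPS. Without fenoterol they had 1 and 4 reads unstimulated and 8 and 9 reads with LPS. In 127 peaks both fenoterol + LPS libraries held at most 3 reads, and 31 of these fell. Both lists were chosen for low values in the libraries compared, which favours the direction counted, so these numbers support nothing.

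The share of changed peaks also varied with width. Of peaks from 400 to below 600 bp, 12.2% rose and 6.47% fell, the highest shares of the 5 width classes in both directions. Of peaks of 1000 bp or more, 3.90% rose and 2.53% fell, and these broad peaks had the highest median level with fenoterol, 49.0 RPKM. The median log2 change of the risen peaks went down with width in every step, from 1.23 under 250 bp to 0.70 at 1000 bp or more, and that of the fallen peaks went from -0.97 to -0.50. These medians are over called peaks alone. Over all tested peaks the median size of the log2 change, of either sign, went from 0.37 to 0.12. Peaks under 250 bp had the lowest median level with fenoterol, 13.4 RPKM. The part of level and of read number in these sizes was not tested. By chromosome, leaving out chromosome Y with 0 of 32 peaks risen, the share that rose ran from 7.26% on X to 11.4% on chromosome 6.

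**Figure D3:**
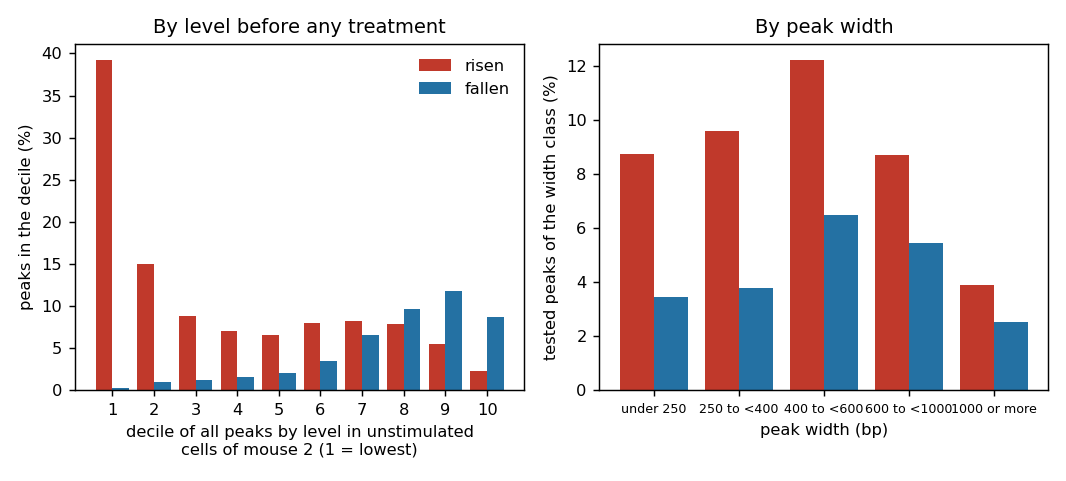
Share of peaks (%) that rose (red) or fell (blue) from fenoterol to fenoterol + LPS, by decile of all 74207 peaks ranked on the unstimulated library of mouse 2 and tested with no filter (left), and by peak width among the 66786 tested peaks (right). Rises are most frequent in the lowest decile, at 39.2%, and falls in the ninth, at 11.8%; peaks of 1000 bp or more changed least often.

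Regions that gained accessibility lay near one another. Of the risen peaks 45.1% had another risen peak within 20 kb, against 23.3% of all tested peaks, and 30.2% of the fallen peaks had another fallen peak within 20 kb, against 13.8% of all. A fallen peak lay within 20 kb of 11.8% of the risen peaks, below the 13.8% of all tested peaks. Among pairs of adjacent tested peaks less than 1 kb apart, both were called in 457, and 94.3% of these moved the same way, 327 pairs up and 104 down. The share was 81.3% at 1 to 5 kb, 79.2% at 5 to 20 kb, 70.8% at 20 to 50 kb and 73.6% at 50 to 200 kb. Across the pairs less than 1 kb apart the log2 changes correlated with r = 0.367 (7185 pairs), against 0.187 at 1 to 5 kb (13453 pairs), in the same libraries throughout.

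The longest run of neighbouring tested peaks that all rose held 9 peaks over 29166 bp on chromosome 5, at 92775084 to 92804250. Its first 4 peaks formed a dense group: the one at 92775084 to 92775632 went from 3.46 and 7.08 to 22.7 and 38.4 RPKM, and that at 92777699 to 92778213 from 19.1 and 21.1 to 59.4 and 69.3 RPKM. The latter had the smallest adjusted p of the run, 4.90e-06. Mouse 2 was above mouse 1 after LPS at both. Log2 changes in the run went from 0.52 to 1.89, and 7 of the 9 peaks also rose with LPS alone. At the 4 dense peaks the LPS libraries of mouse 1 and mouse 2 had 34.3 to 73.2 and 49.8 to 64.2 RPKM.

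On chromosome 16, 8 peaks over 42554 bp at 84585249 to 84627803 rose, and all 8 also rose with LPS alone. The largest change, log2 2.31 (adjusted p = 1.24e-06), was at 84603861 to 84604452, from 5.88 and 12.3 RPKM to 58.5 and 58.9 RPKM. Over the run the mean level went from 22.4 and 24.0 RPKM with fenoterol to 54.7 and 56.8 RPKM with both, and from 25.6 and 22.9 to 54.3 and 53.9 RPKM without fenoterol, so the 4 libraries with LPS were alike. Runs of 7 peaks lay on chromosome 17 at 35335631 to 35357097, on chromosome 14 at 103442130 to 103458676 and on chromosome 11 at 54747662 to 54776837. Each begins at or contains a peak named above, the ones at 35335631, 103456180 and 54767546. The chromosome 17 run changed by a mean log2 of 1.57, from 13.6 and 17.4 to 49.1 and 58.9 RPKM, and kept all 7 calls under all 20 alternatives. Within 60 kb of its centre 2 peaks fell, with log2 changes of -0.93 and -0.81.

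Fewer peaks fell than rose (4.87% against 9.92% of those tested), which by itself makes long runs of falls less frequent. Runs of fallen peaks were shorter, with 2 of 5 peaks. That on chromosome 8 at 126755057 to 126775101 went from a mean of 41.4 and 35.4 RPKM to 22.8 and 20.6 RPKM, and none of its 5 peaks was called with LPS alone, where the mean level went from 30.9 and 26.1 to 25.2 and 22.9 RPKM. Its fenoterol libraries were the highest 2 of the 8. That on chromosome 1 at 154647081 to 154658198 went from 32.6 and 33.3 to 18.2 and 18.9 RPKM, with 1 of 5 peaks also called with LPS alone. Of the 4 peaks on chromosome 2 at 58007673 to 58013749, 1 was called with LPS alone, with a mean log2 change of -0.87 with fenoterol and -0.30 without. In runs of 4 on chromosome 17 (84580135 to 84588283) and chromosome 5 (139879810 to 139885629) every peak also fell with LPS alone. The difference of the LPS responses passed at no peak of these fallen runs (smallest adjusted p = 0.448 by limma-trend, on chromosome 2). The calls of the fallen runs were less stable: under the alternatives at the least 1 and 0 of the 5 peaks remained called in the 2 longest, against 4 of 9 and 6 of 8 in the 2 longest risen runs.

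**Figure D4:**
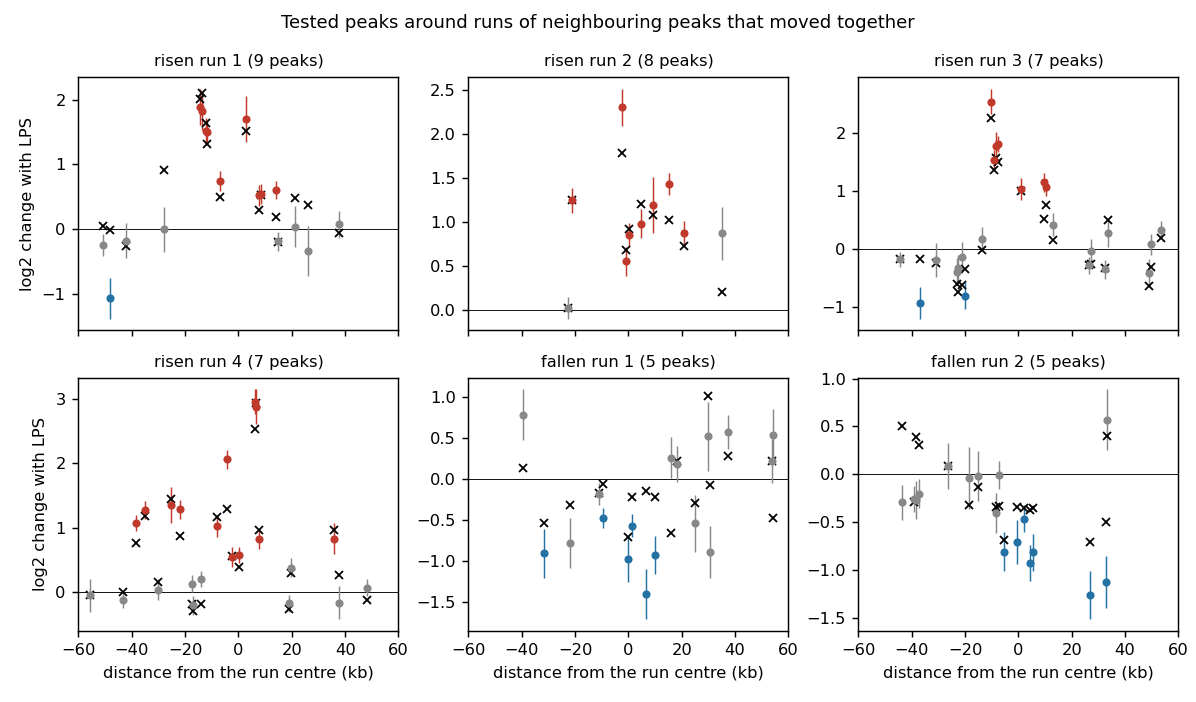
Log2 change with LPS of every tested peak within 60 kb of the centre of 4 runs of risen peaks and 2 runs of fallen peaks, by distance from the run centre (kb); points with bars of 1 SE are fenoterol + LPS against fenoterol, in red if risen, blue if fallen and grey if not called, and crosses are LPS against unstimulated cells. At every peak of the risen runs the cross lies above 0, and in the first fallen run (chromosome 8) they lie nearer 0 than the points.

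Most regions that moved with LPS in fenoterol-treated cells moved the same way without fenoterol. Of the 6623 risen peaks 87.5% had higher RPKM with LPS than unstimulated in each mouse, where 29.7% of all tested peaks did. Among the 3252 fallen peaks 82.7% had lower RPKM in each, where 33.7% of all did. By the test 3406 of the risen peaks (51.4%) also rose with LPS alone and 1140 of the fallen (35.1%) also fell, where 6.98% and 4.27% of tested peaks did; the 2 comparisons share no group mean but share 1 estimate of the spread of each peak. A call in 1 comparison alone is not a difference between them. Of 3212 peaks that rose with fenoterol and were not called with LPS alone, 2386 (74.3%) were higher with LPS in both mice without fenoterol too, and 1 passed the test of the difference, where 983 had an unadjusted p under 0.05. Of 2112 such fallen peaks, 1549 (73.3%) were lower in both, and 0 passed by limma-trend, where 546 had an unadjusted p under 0.05, as did 6.90% of all tested peaks. Choosing peaks called in 1 comparison alone favours a low p for the difference.

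Choosing peaks in 1 mouse and measuring them in the other gave the sizes. The 5018 peaks at least 2-fold higher in mouse 1 with fenoterol had a median log2 change in mouse 2 of 0.99 with fenoterol and 0.84 without. The 3535 chosen in mouse 2 had 1.33 and 0.95 in mouse 1. Peaks chosen on the LPS response without fenoterol were also a little higher with it: the 4585 chosen in mouse 1 had 0.70 with and 0.65 without fenoterol in mouse 2, and the 3034 chosen in mouse 2 had 1.30 and 1.03 in mouse 1. The gap was larger where mouse 1 was measured, the mouse with the lower fenoterol library and the unstimulated library of 1425275 reads; their part in it was not tested.

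The test of the difference between the LPS responses with and without fenoterol passed at 1 of 66786 peaks (0.0015%), and 4608 had an unadjusted p under 0.05. That peak, on chromosome 8 at 28373038 to 28373244, had 25.5 and 24.7 RPKM unstimulated, 13.8 and 8.79 with fenoterol, 41.5 and 29.1 with LPS and 69.2 and 51.8 with both. The fenoterol libraries were the lowest 2 and the fenoterol + LPS libraries the highest 2. Its LPS response was a log2 change of 2.08 (SE 0.16) with fenoterol and 0.42 without, a difference of 1.67 (SE 0.23, adjusted p = 0.0346 by limma-trend). These SEs do not take the number of reads at the peak into account, which was 7 to 56 per library. With fenoterol the exact 95% Poisson intervals were 6.31 to 26.2 RPKM in mouse 1 and 3.53 to 18.1 RPKM in mouse 2. By limma voom on recovered reads the difference did not pass, with or without pairing by mouse. The call was kept under 6 of 19 alternatives and lost when any of the fenoterol, LPS or fenoterol + LPS libraries was left out, with adjusted p-values of 0.00679 to 0.701 over all 19.

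The other 9 peaks with the smallest unadjusted p for this difference, 4 higher and 5 lower with fenoterol, did not pass by limma-trend (adjusted p = 0.195 to 0.306). By limma voom on recovered reads, 3 of the 5 lower ones passed with pairing by mouse and 2 without it. The 3 were those at 56893474 (chromosome 18), 106147045 (chromosome 5) and 192991601 (chromosome 1). At all 5 of the higher set, the chromosome 8 peak included, the fenoterol libraries were both below the unstimulated ones and the fenoterol + LPS libraries both above those with LPS, as at 3.23% of all tested peaks. At the 5 of the lower set the fenoterol libraries were both above the unstimulated ones, as at 15.1% of all. Choosing peaks by this difference selects for such orders, so they are descriptions. In the lower set 2 peaks rose with LPS alone and were not called with fenoterol. The peak on chromosome 18 at 56893474 to 56893894 had 58.7 and 48.6 RPKM with fenoterol and 44.2 and 40.1 with both (log2 change -0.32, adjusted p = 0.208), where LPS alone took it from 14.3 and 21.3 to 39.3 and 40.9 RPKM (log2 change 1.04). Its fenoterol libraries were the highest 2 of the 8. The peak on chromosome 1 at 192991601 to 192992401 had 9.87 and 12.6 RPKM with fenoterol and 9.22 and 11.9 with fenoterol + LPS, a log2 change of -0.06 (SE 0.27, adjusted p = 0.913), where LPS alone took it from 7.51 and 7.56 to 39.2 and 33.4 RPKM (log2 change 1.80, adjusted p = 0.000203). The difference, -1.87 (SE 0.38), had an adjusted p of 0.306 by limma-trend and 2.33e-06 by limma voom on recovered reads. On chromosome 5, the peak at 106147045 to 106147777 fell from 81.6 and 71.0 RPKM with fenoterol to 35.4 and 31.4 RPKM with both (adjusted p = 4.11e-05), the level of unstimulated cells (28.7 and 36.4) and of LPS alone (35.8 and 31.3). Only the fenoterol libraries stood apart there.

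There were 5 peaks that rose here and fell with LPS alone, and 0 the other way round. On chromosome 5 at 34878564 to 34878884 the levels were 44.6 and 54.4 RPKM unstimulated and 32.0 and 33.2 with LPS (adjusted p = 0.0119), against 31.6 and 33.9 with fenoterol and 49.3 and 47.4 with both (adjusted p = 0.0129). The peaks on chromosomes 4 (89153652 to 89153955), 10 (36923542 to 36923943) and 9 (58428683 to 58428974 and 121482422 to 121482621) were alike: the LPS libraries lay at 7.48 to 21.6 RPKM, below the 18.4 to 40.2 RPKM of fenoterol + LPS. At all 5, both fenoterol + LPS libraries were above both LPS libraries, and at 4 both fenoterol libraries were below both unstimulated ones (20.7% and 16.99% of all tested peaks); opposite calls select for this order. The difference of the responses passed at none of the 5 (adjusted p = 0.195 to 0.370), and each rise lost its call when either mouse 1 library of the comparison was left out.

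**Figure D5:**
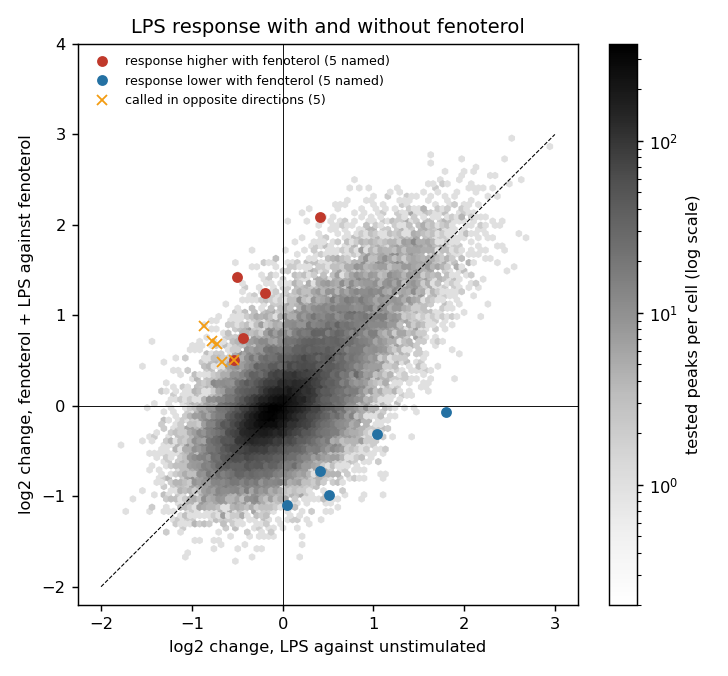
Log2 change with LPS in fenoterol-treated cells (vertical axis) against that in cells without fenoterol (horizontal axis) over 66786 tested peaks, with grey cells shaded by the number of peaks on a log scale and the dashed line marking equal change. Red and blue points are the 5 peaks with the smallest unadjusted p for a higher and for a lower response with fenoterol. Of these 1, the topmost red point (chromosome 8), passed by limma-trend. Orange crosses are the 5 peaks called in opposite directions.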

How the data were processed

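ATAC-seq values came from 8 libraries of 2 mice (4 groups, n = 2). The deposited table gives RPKM values made by the authors for 1 peak set; cutadapt, Bowtie2, MACS2 and HOMER and build mm9 are named, without roles, per the submitters' processing notes. Whether duplicates or mitochondrial reads were removed, reads shifted for the Tn5 cut or libraries pooled to call peaks is not given in the sources. RPKM times width (end minus start) came within 0.01 read of whole multiples in 100% of values, which gave reads per peak; peaks with none appear set to 1 read.

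Values were divided by median-ratio size factors, and log2 was taken of the value + 4. A filter on the mean left out 7421 peaks, the lowest 10% (under 9.68 RPKM). Limma-trend (limma 3.58.1, R 4.3.3) fitted 4 group means with mouse as a block over all 8 libraries, with 3 residual degrees of freedom and a prior worth 16.3, and Benjamini-Hochberg adjustment; the prior outweighs the spread between the 2 animals at a single peak. Deposited RPKM are not counts, so limma voom on recovered reads is an alternative only. The fit was also run on simulated reads drawn without differences between the mice. The outcome of that run is not given here and supports nothing above. Mouse numbers name the animals in the labels, so same-numbered libraries are pairs; across groups, the mouse differences had correlations of 0.0222 to 0.0712. At peaks with at least 40 reads over the 2 libraries compared, reads of the 2 mice differed with a chi-square over degrees of freedom of 1.12 for fenoterol (42429 peaks) and 0.891 for fenoterol + LPS (46600 peaks). Between these groups it was 3.34 to 3.94. Counting error alone gives about 1, so at these peaks the pairs showed little spread between the 2 animals beyond it. Peaks with fewer reads, such as most of the largest gains before LPS, are not covered by these values. The spread over further animals was not measured. Each group has 1 pair, and none was merged.

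Named were the 12 largest rises and falls that moved alike in both mice, the 5 smallest p for the difference of responses in each direction, the 5 longest runs in each direction (at most 20 kb between neighbours), the 5 highest risen and fallen peaks, and all peaks called in opposite directions. The comparison, lists and rules were chosen with earlier results of these data known. Alternatives were the values as deposited, quantile and cyclic loess scaling, pseudocounts of 0.8 and 20, other filters, no mean trend, no block, the 4 libraries alone, voom, and leaving out each library.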

Additional observations from a re-analysis of the deposited data

Results flagged for a closer look

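The LPS response differed with fenoterol by the test of the difference at 1 peak, on chromosome 8 at 28373038 to 28373244, where the difference of the log2 changes was 1.67 (SE 0.23, adjusted p = 0.0346 by limma-trend). Both mice showed it, with log2 changes of 2.04 and 2.12 with fenoterol and 0.62 and 0.21 without. The peak is 206 bp wide and held 9 and 7 reads with fenoterol, 56 and 38 with fenoterol + LPS, 7 and 21 unstimulated and 30 and 22 with LPS. The SE does not take these read numbers into account. By limma voom on recovered reads the difference did not pass, with or without pairing by mouse.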

How the results depend on the processing

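Without the replicate block, that is without pairing by mouse, 6296 peaks rose and 2882 fell, and the call of a different LPS response with fenoterol was lost (0 higher, 0 lower). The pairing also carried 2 calls among the 5 peaks called in opposite directions, 3 among the 5 high fallen peaks and 1 among the 5 high risen peaks; it changed no call among the 12 largest rises and falls. The number of risen peaks stayed within 1.5 times of 6623 in all 12 alternatives other than leaving out 1 library. The number of fallen peaks was 4911 with quantile scaling, 1439 with no mean trend, 5649 on the 4 libraries alone and 5377 by voom with the block. Leaving out 1 library gave 2492 to 8440 risen and 757 to 5014 fallen peaks; an arm with 1 library is then assumed to vary like the others. Of the 6623 and 3252 peaks, 6483 and 3108 were called again by voom with the block, and none was called the other way under any alternative. A response higher with fenoterol was called at 0 peaks on the values as deposited, with cyclic loess, with a pseudocount of 0.8 and with no mean trend, at 10 by voom with the block, and at 0 to 146 without 1 library. A lower response was called at 6 by voom with the block, 3 by voom without it, and 0 to 141 without 1 library, both highest numbers arising when unstimulated cells of mouse 2 were dropped and only the mouse 1 library of 1425275 reads stayed. No value reversed. The 4 libraries compared had a median of 21 to 28 reads per peak, with 2 libraries per group. Small changes at low peaks may have been missed, which was not tested.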
